A study of Mus musculus with 8 samples.

Results

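The genes that start and extend the autophagosome were examined in gastrocnemius muscle of aged mice with a muscle-specific deletion of *Nox4* and of floxed controls. NOX4 is an NADPH oxidase that makes hydrogen peroxide. The 39 genes were chosen by name, as rows of the deposited count table that carry the symbols of the ULK complex (5 genes), the PI3K complex (6), lipid transfer and membrane supply (8), ATG8 and ATG12 conjugation (10), cargo receptors (4), fusion with the lysosome (4) and the transcription factors TFEB and TFE3 (2). All 39 were among the 32390 rows of the table, and all 39 passed the filter on low counts that left 12725 rows to test. The controls were 4 *Nox4* fl/fl mice, which carry loxP sites at *Nox4* but no Cre. The NOX4-deficient mice were 4 MckCre:*Nox4* fl/fl animals, so that both groups shared the floxed allele and Cre was present in the NOX4-deficient group alone. The *Mck* promoter drives Cre in muscle fibers and to a lesser extent in heart, and leaves the other cells of the muscle with an intact gene. All 8 mice were males on a C57BL/6 background fed standard chow, were 21 months old according to the labels, and were labelled as 1 batch.

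Autophagy begins when the ULK kinase complex, which integrates signals from mTORC1 and AMPK, switches on a class III phosphatidylinositol 3-kinase that marks a patch of membrane at the endoplasmic reticulum. WIPI proteins read that lipid, ATG2 and ATG9 feed the growing membrane, and a pair of ubiquitin-like conjugation systems attaches ATG8 proteins to it. Receptors then tie cargo to the ATG8 proteins, and SNARE proteins fuse the closed autophagosome with a lysosome. In skeletal muscle the pathway removes damaged mitochondria and protein aggregates, runs harder on fasting and exercise, and is needed for the upkeep of muscle mass.

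The libraries held between 16350548 and 19804661 counts on genes. Counts on the deleted gene *Nox4* were 85, 48, 35 and 70 in controls 1 to 4, and 29, 43, 42 and 37 in NOX4-deficient mice 1 to 4. These ranges overlapped, the log2 fold change was -0.65 (SE 0.29, edgeR adjusted p = 0.207; exact permutation test, two-sided p = 0.20), and without control 1 it was -0.36 (adjusted p = 0.489). These counts therefore do not by themselves check the genotype labels, and the reason for the overlap was not tested. By qPCR, the paper reports that *Nox4* was largely lost in gastrocnemius of younger mice of this genotype. The 12 muscle fiber markers, among them *Acta1*, *Ckm* and *Myh4*, were all detected, summed to between 156538 and 190258 CPM (the count as a share of the library, scaled by edgeR's TMM method) in controls and between 167982 and 195469 CPM in NOX4-deficient muscle, and 0 of 12 was called. Some other markers differed between the genotypes. The 3 measured blood markers summed to 47.6 to 52.7 CPM in controls and 72.3 to 159 CPM in NOX4-deficient muscle, with 2 of 3 called higher. The 5 satellite cell markers summed to 56.7 to 78.6 CPM and 34.6 to 41.1 CPM, and this difference lay in *Sdc4* (log2 fold change -1.13), the 1 of 4 tested that was called lower. Without *Sdc4* the sums overlapped, at 11.6 to 14.7 CPM and 11.6 to 16.0 CPM, and *Pax7*, which defines satellite cells, had a log2 fold change of 0.67 (adjusted p = 0.117). The 15 measured clock genes summed to 787 to 924 CPM and 984 to 1126 CPM, with 2 called lower (*Arntl* and *Npas2*) and 5 higher (*Per3*, *Dbp*, *Hlf*, *Bhlhe41* and *Ciart*). In the slow fiber, endothelial, and leukocyte and macrophage lists 1 marker each was called, and in the adipocyte, fibroblast and tendon, and Schwann cell and nerve lists 0 markers were called, and the summed levels of these 6 lists overlapped between genotypes. No list had a marker with 0 counts in all 8 libraries other than symbols missing from the table. The part of blood genes, *Sdc4* and clock genes in the results that follow was not tested. In bulk muscle, fewer cells of a type and less RNA per cell cannot be told apart.

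NOX4-deficient muscle had lower transcript levels of *Ulk1*, which encodes a catalytic subunit of the kinase that starts autophagy, but not of its paralog *Ulk2*. *Atg13* of the same complex and single genes in 3 of the steps that follow were also lower, whereas the conjugation genes lay near their control levels. A gene was called when edgeR's quasi-likelihood test gave a Benjamini-Hochberg adjusted p under 0.05 and the absolute log2 fold change exceeded 0.5. By this rule 5 of the 39 genes (12.8%) fell: *Ulk1*, *Atg13*, *Vmp1*, *Optn* and *Snap29*. Of these, *Ulk1* and *Vmp1* alone kept their calls with each of the 8 mice left out in turn. Of all 12725 rows tested, 3.48% were called lower. None of the 39 was called higher, against 2.68% of all rows. With the adjusted p alone, *Wipi1* and *Tax1bp1* joined the others, making 7 genes lower and 0 higher, against 4.62% and 3.13% of all rows. At an unadjusted p under 0.05, 13 genes passed (33.3%), all of them with a negative log2 fold change, against 23.2% of all rows in either direction and 12.5% with a negative one. The 4 controls and the 4 NOX4-deficient mice did not overlap for 11 genes that were lower (28.2%) and for 1 that was higher, against 8.97% and 7.20% of all rows, and overlapped for 27. The log2 fold change was negative for 29 of 39 genes (74.4%), against 47.7% of all rows, with a median of -0.11 against 0.01 for all rows.

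**Figure D1:**
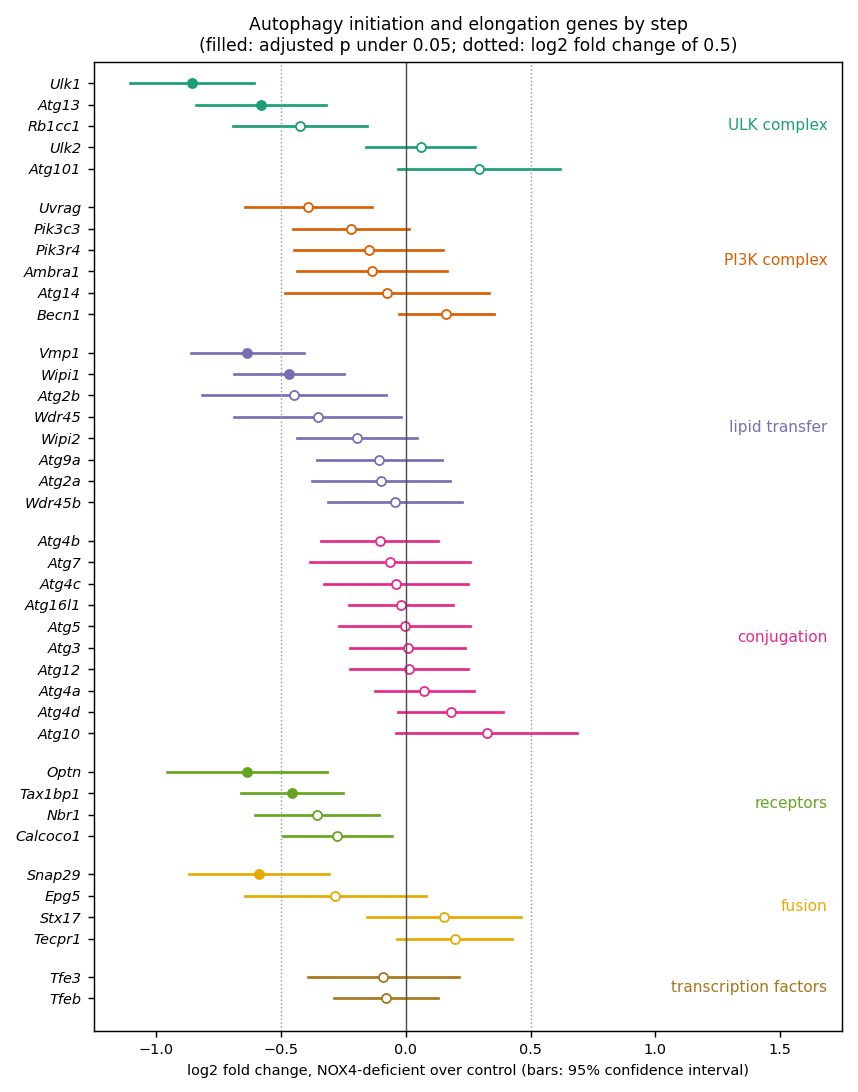
Log2 fold change of each of the 39 genes, NOX4-deficient over control, with its 95% confidence interval from the edgeR fit, grouped by step. Filled points have an adjusted p under 0.05: all 7 lie left of 0, none is a conjugation gene, and the intervals of 9 of the 10 conjugation genes stay within -0.39 and 0.39.

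The promoters of the genes that fell were set beside those of genes that did not. RefSeq's table on GRCm38.p6 had an entry for 32 of the 39 genes, with 41 promoters in all. The 250 bases before each start site were searched on both strands for the letters of 3 motifs. They included CACGTG, an E-box that TFEB and TFE3 read among other factors, and TGTTTAC, read by FOXO factors. The last was TGACNNNGC, the core of the antioxidant response element that NFE2L2 reads. *Ulk1* and *Atg13* are shown as genes of the initiation complex that fell, and *Vmp1* as the lipid transfer gene that fell. *Atg3*, *Atg5* and *Atg7* are conjugation genes that were not called, and are shown because they were the members with an E-box. The other conjugation genes with a promoter entry had no E-box. The called genes *Optn* and *Snap29* are not shown. Capitals mark a match to either the E-box or the antioxidant core, read 5′ to 3′ on the gene's strand.
Ulk1 (chr5:110810082-110810331, minus strand): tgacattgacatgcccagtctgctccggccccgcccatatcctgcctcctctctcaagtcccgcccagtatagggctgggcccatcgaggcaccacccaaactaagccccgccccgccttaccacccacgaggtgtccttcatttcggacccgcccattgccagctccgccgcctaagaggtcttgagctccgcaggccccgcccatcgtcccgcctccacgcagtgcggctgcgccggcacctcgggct
Atg13 (chr2:91710593-91710842, minus strand): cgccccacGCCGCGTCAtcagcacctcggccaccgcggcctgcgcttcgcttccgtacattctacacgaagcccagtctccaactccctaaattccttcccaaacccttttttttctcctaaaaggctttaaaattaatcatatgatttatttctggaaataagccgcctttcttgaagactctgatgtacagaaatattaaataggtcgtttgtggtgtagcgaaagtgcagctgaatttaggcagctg
Vmp1, promoter 1 (chr11:86683837-86684086, minus strand): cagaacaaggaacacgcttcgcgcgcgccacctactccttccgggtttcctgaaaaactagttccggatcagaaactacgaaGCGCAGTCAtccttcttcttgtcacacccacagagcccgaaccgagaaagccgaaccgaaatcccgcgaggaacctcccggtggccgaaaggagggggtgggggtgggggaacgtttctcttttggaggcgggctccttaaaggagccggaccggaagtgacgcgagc
Atg3 (chr16:45158579-45158828, plus strand): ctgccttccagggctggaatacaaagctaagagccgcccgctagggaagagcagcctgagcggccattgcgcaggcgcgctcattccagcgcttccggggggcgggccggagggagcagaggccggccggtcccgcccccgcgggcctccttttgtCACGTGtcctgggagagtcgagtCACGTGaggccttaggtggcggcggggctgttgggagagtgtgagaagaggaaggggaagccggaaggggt
Atg5 (chr10:44268089-44268338, plus strand): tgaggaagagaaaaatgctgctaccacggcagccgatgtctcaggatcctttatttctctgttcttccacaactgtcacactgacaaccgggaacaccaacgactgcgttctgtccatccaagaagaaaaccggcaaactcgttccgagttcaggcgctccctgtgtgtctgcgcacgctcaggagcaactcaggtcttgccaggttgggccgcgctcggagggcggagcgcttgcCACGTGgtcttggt
Atg7 (chr6:114670846-114671095, plus strand): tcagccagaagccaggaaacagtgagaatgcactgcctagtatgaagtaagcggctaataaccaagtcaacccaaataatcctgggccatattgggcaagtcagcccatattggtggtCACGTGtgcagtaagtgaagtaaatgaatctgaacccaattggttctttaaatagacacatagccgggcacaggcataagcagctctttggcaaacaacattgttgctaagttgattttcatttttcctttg
The E-box stood in 3 of the 41 promoters (7.32%), against 6.02% of 32851 mouse promoters of the same length. These were the promoters of *Atg3*, with matches beginning 94 and 71 bases before the start, *Atg5* (14 bases) and *Atg7* (132 bases), and 0 of the 5 genes that fell had one. The antioxidant core stood in 6 promoters of 4 genes (14.6% of the 41, against 10.2% of all promoters): *Atg13*, 242 bases before the start, all 3 promoters of *Vmp1*, *Ulk2* and *Tax1bp1*. The FOXO letters stood in 0 of 41, against 3.17% of all promoters. The windows of *Ulk1*, *Optn* and *Snap29* held none of the 3 motifs. A match is a description of letters in this window and was not tested as a binding site.

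The ULK complex carries the initiating kinase. *Ulk1*, a catalytic subunit, stood at 142, 146, 152 and 196 CPM in controls 1 to 4 and at 86.6, 92.9, 82.0 and 89.5 CPM in NOX4-deficient mice 1 to 4. The lowest control lay well above the highest NOX4-deficient mouse, and control 4 stood above the other controls. *Ulk1* fell to 0.552 of its control level, a log2 fold change of -0.86 (SE 0.12, adjusted p = 0.00127). *Atg13*, the regulatory subunit that mTORC1 phosphorylates, stood at 63.3, 63.9, 65.5 and 82.2 CPM in controls and at 45.9, 49.9, 38.7 and 49.5 CPM in NOX4-deficient mice. Its groups did not overlap, and it fell by 0.58 on the log2 scale (SE 0.12, adjusted p = 0.0142). *Rb1cc1*, which encodes the scaffold FIP200, averaged 128 ± 14.0 CPM in controls and 95.5 ± 14.3 CPM in NOX4-deficient mice (SD, n = 4 each). No mouse of one genotype entered the range of the other, but its adjusted p of 0.0568 missed the threshold (log2 fold change -0.42, SE 0.12).

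The other ULK genes had positive log2 fold changes and overlapping groups. *Ulk2*, which encodes the other catalytic subunit, stood at 161, 174, 182 and 166 CPM in controls and at 155, 196, 171 and 189 CPM in NOX4-deficient mice, with a log2 fold change of 0.06 (95% interval -0.16 to 0.28). *Atg101*, the partner that stabilizes ATG13, had a log2 fold change of 0.29 (adjusted p = 0.265). The paralogs were therefore compared within each library. Per kilobase of transcript, control muscle held *Ulk1* and *Ulk2* at about the same level, 30.5 ± 4.77 and 29.7 ± 1.62 CPM per kilobase (SD, n = 4), and NOX4-deficient muscle held them at 16.8 ± 0.890 and 31.0 ± 3.18 CPM per kilobase. The log2 ratio of *Ulk1* to *Ulk2* CPM ran from -0.26 to 0.24 in the controls and from -1.08 to -0.84 in NOX4-deficient mice, so that the groups did not overlap. The mean ratio was lower by 0.90 on the log2 scale. The exact permutation test, two-sided, gave the smallest p that 4 mice against 4 can give, 0.0286 (0.114 when adjusted over 4 paralog pairs). *Ulk1* had already been seen to fall, so the ratio is no separate evidence of that fall.

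The other 3 pairs overlapped between genotypes. The log2 ratio of *Wipi1* to *Wipi2* differed by -0.28 between the means (exact permutation p = 0.114, adjusted 0.152), that of *Wdr45* to *Wdr45b* by -0.34 (exact permutation p = 0.171, adjusted 0.171) and that of *Atg2b* to *Atg2a* by -0.35 (exact permutation p = 0.114, adjusted 0.152).

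**Figure D2:**
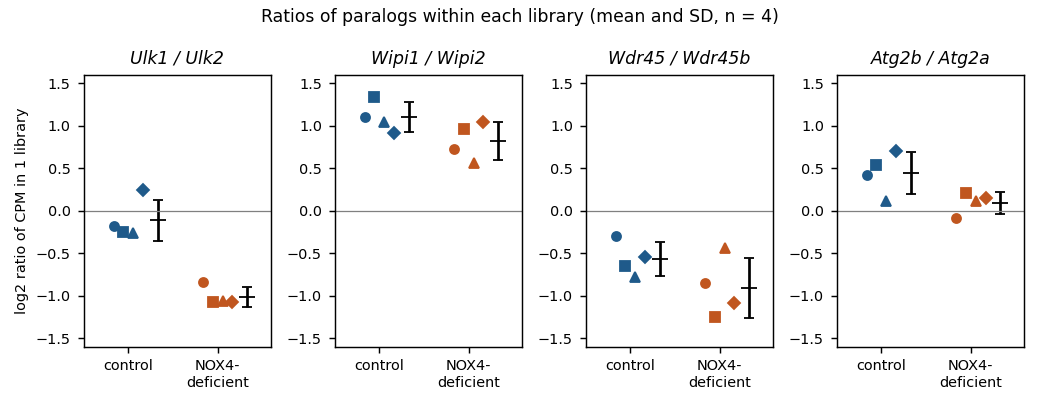
Log2 ratio of the CPM of a pair of paralogs within each library, by genotype, with the mean and SD of 4 mice; symbols mark replicates 1 to 4. The *Ulk1* to *Ulk2* ratio of all 4 NOX4-deficient mice lies below that of all 4 controls, and the other 3 pairs overlap.

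The PI3K complex places phosphatidylinositol 3-phosphate on the membrane. None of its 6 genes was called, 5 of 6 had negative log2 fold changes, and the median was -0.14. *Uvrag*, the subunit of the complex that acts on endosomes and late in autophagy, had the smallest p of the step. It stood at 23.9, 22.4, 22.9 and 22.7 CPM in controls and at 17.9, 17.5, 14.6 and 20.2 CPM in NOX4-deficient mice, a log2 fold change of -0.39 (SE 0.12, adjusted p = 0.0619). The controls lay close together and above every NOX4-deficient mouse. An antisense gene, *Gm45187*, covers 17.6% of the exon bases of *Uvrag* in GENCODE vM21, and unstranded reads of the pair cannot be told apart. *Becn1*, the scaffold subunit, was the single gene of the 39 whose NOX4-deficient mice all lay above the controls, at 50.6 ± 1.99 CPM against 45.2 ± 1.09 CPM (SD, n = 4). The difference was small, with a log2 fold change of 0.16 (SE 0.09, adjusted p = 0.296), and 43.9% of its exon bases are shared with *Cntd1* on the opposite strand. *Pik3c3*, which encodes the catalytic subunit VPS34, averaged 25.9 ± 2.36 CPM in controls and 22.3 ± 1.17 CPM in NOX4-deficient mice (SD, n = 4 each), with overlapping groups and a log2 fold change of -0.22 (adjusted p = 0.245). The remaining *Pik3r4*, *Atg14* and *Ambra1* had log2 fold changes from -0.15 to -0.08 and overlapping groups. *Atg14*, which sends the complex to the sites where autophagosomes form, had the lowest level per kilobase of all 39 genes, 2.42 ± 0.479 CPM per kilobase in controls.

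All 8 genes of lipid transfer and membrane supply had negative log2 fold changes, with a median of -0.27. *Vmp1*, a lipid scramblase of the endoplasmic reticulum that works beside ATG2, stood at 81.6, 80.5, 85.7 and 94.7 CPM in controls and at 54.7, 49.6, 53.0 and 63.3 CPM in NOX4-deficient mice. The groups were far apart, and *Vmp1* fell by 0.63 on the log2 scale (SE 0.10, adjusted p = 0.00424). The microRNA gene *Mir21a* covers 2.38% of its exon bases. *Wipi1*, a reader of phosphatidylinositol 3-phosphate, stood at 93.2, 101, 99.6 and 94.2 CPM in controls and at 74.3, 72.9, 59.1 and 74.5 CPM in NOX4-deficient mice, again with no overlap. Its log2 fold change of -0.47 (SE 0.10, adjusted p = 0.0167) passed the adjusted p and not the fold threshold. *Wdr45*, a further WIPI protein, did not overlap either, at 13.2 ± 0.544 CPM in controls and 10.4 ± 2.20 CPM in NOX4-deficient mice (SD, n = 4 each), but its adjusted p was 0.194 (log2 fold change -0.35), and *Gm45208* on the same strand covers 24.7% of its exon bases. *Atg2b*, one of a pair of lipid channels, had a log2 fold change of -0.45 with a wide interval of -0.82 to -0.08 (adjusted p = 0.136) and overlapping groups. *Wipi2*, *Wdr45b*, *Atg2a* and the scramblase gene *Atg9a* had log2 fold changes from -0.19 to -0.04 and overlapped, and *Gm29253* on the same strand covers 31.8% of the exon bases of *Atg9a*.

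**Figure D3:**
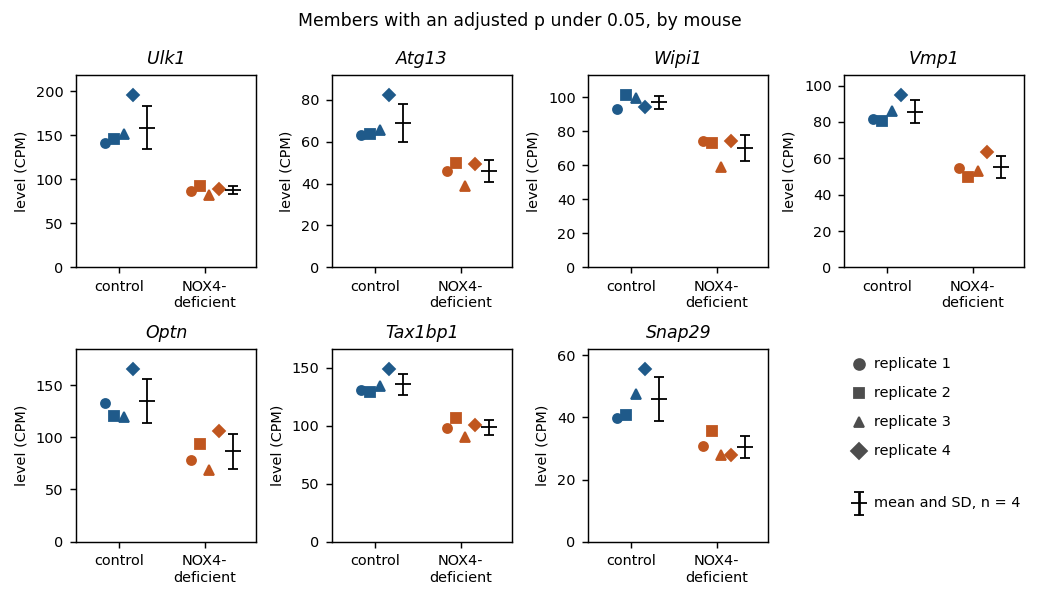
Level in each mouse, in TMM-scaled CPM on axes that start at 0, of the 7 genes with an adjusted p under 0.05; symbols mark replicates 1 to 4, and the bars give the mean and SD of 4 mice. The genotypes do not overlap for any of the 7, and control 4 is the highest control for 6 of them.

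The conjugation genes lay near their control levels. None of 10 was called, none separated the genotypes, 5 of 10 had negative log2 fold changes, and the median was 0.00. For 9 of the 10 the log2 fold change was under 0.25 in absolute size, with 95% intervals that stayed within -0.39 and 0.39, so that for these 9 a change of the size used for calling lay outside the interval. *Atg5*, which joins ATG12 to form the ligase that tags membrane with ATG8, averaged 14.8 ± 1.72 CPM in controls and 14.7 ± 1.05 CPM in NOX4-deficient mice (SD, n = 4 each). *Atg7*, the enzyme that activates both ubiquitin-like systems, averaged 12.8 ± 1.37 CPM and 12.3 ± 2.20 CPM (SD, n = 4). *Atg16l1*, which directs the ligase to the membrane, varied little, from 21.1 to 22.8 CPM over controls and from 21.6 to 22.3 CPM over NOX4-deficient mice. The conjugating enzyme *Atg3* and the modifier *Atg12* had log2 fold changes of 0.01 each. For *Atg3*, *Atg5*, *Atg7*, *Atg12*, *Atg16l1* and *Atg4c* the sign of so small a value turned under at least 1 alternative scaling, filter or omission of a mouse. The exception in size was *Atg10*, which conjugates ATG12 to ATG5. It stood at 8.81, 8.49, 8.29 and 6.34 CPM in controls and at 11.7, 8.19, 8.62 and 11.6 CPM in NOX4-deficient mice. The groups overlapped, and its log2 fold change of 0.32 (SE 0.17, adjusted p = 0.272) came with the interval -0.04 to 0.69. The 4 *Atg4* genes encode the proteases that trim ATG8 proteins and release them from membrane. Their log2 fold changes ran from -0.11 (*Atg4b*) to 0.18 (*Atg4d*), and *Kri1* on the opposite strand covers 19.3% of the exon bases of *Atg4d*.

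All 4 cargo receptor genes had negative log2 fold changes and an unadjusted p under 0.05 (12.5% of all rows did both), with a median of -0.41. *Optn*, the receptor optineurin that acts in the clearance of damaged mitochondria and of bacteria, stood at 133, 121, 120 and 165 CPM in controls and at 78.1, 93.8, 68.7 and 106 CPM in NOX4-deficient mice. The gap between the groups was narrow for its spread, and *Optn* fell by 0.63 on the log2 scale (SE 0.15, adjusted p = 0.0227). *Tax1bp1*, a receptor for ubiquitin-tagged aggregates, stood at 131, 129, 135 and 149 CPM in controls and at 98.2, 107, 90.7 and 100.5 CPM in NOX4-deficient mice. Its groups did not overlap, and its log2 fold change of -0.46 (SE 0.09, adjusted p = 0.0138) passed the adjusted p and not the fold threshold. *Nbr1*, a receptor for ubiquitin-tagged proteins and peroxisomes, separated the genotypes at 130 ± 14.1 CPM and 102 ± 12.1 CPM (SD, n = 4), with an adjusted p of 0.0796 (log2 fold change -0.36). *Calcoco1*, a receptor in turnover of the endoplasmic reticulum and Golgi, overlapped (log2 fold change -0.27, adjusted p = 0.124).

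The fusion genes did not move together. *Snap29*, the SNARE protein that pairs with syntaxin 17 on the autophagosome, stood at 39.9, 40.9, 47.6 and 55.4 CPM in controls and at 30.7, 35.6, 27.9 and 28.0 CPM in NOX4-deficient mice. The groups did not overlap, and *Snap29* fell by 0.59 on the log2 scale (SE 0.13, adjusted p = 0.0186). *Stx17*, which encodes syntaxin 17 itself, had a log2 fold change of 0.15 (adjusted p = 0.572) with groups that overlapped widely. *Tecpr1*, a tether between autophagosome and lysosome, had a log2 fold change of 0.20 (adjusted p = 0.295), and the tether *Epg5* one of -0.28 (adjusted p = 0.340). The transcription factor genes overlapped between genotypes as well. *Tfeb*, whose protein drives lysosome and autophagy genes, stood at 94.7, 94.5, 106 and 106 CPM in controls and at 105, 89.6, 95.2 and 90.0 CPM in NOX4-deficient mice. Its log2 fold change was -0.08 (SE 0.10, adjusted p = 0.679), and that of the related *Tfe3* was -0.09 (adjusted p = 0.753). The activity of TFEB is set largely by its place in the cell, which transcript levels do not measure.

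Mouse by mouse, the steps differed in how far the genotypes lay apart. The mean log2 level of the 4 receptor genes, set to 0 at the control mean, ran from -0.11 to 0.20 in controls and from -0.54 to -0.34 in NOX4-deficient mice. The ULK genes ran from -0.07 to 0.16 and from -0.35 to -0.24. Lipid transfer genes ran from -0.11 to 0.10 and from -0.36 to -0.18. In these 3 steps every NOX4-deficient mouse lay below every control. The conjugation genes ran from -0.08 to 0.07 in controls and from -0.03 to 0.09 in NOX4-deficient mice, and the PI3K, fusion and transcription factor genes also overlapped. These means describe genes chosen by name, with earlier results of these data known, and were not tested. In the ULK step the low mean came from *Ulk1*, *Atg13* and *Rb1cc1*, since *Ulk2* and *Atg101* had positive log2 fold changes.

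**Figure D4:**
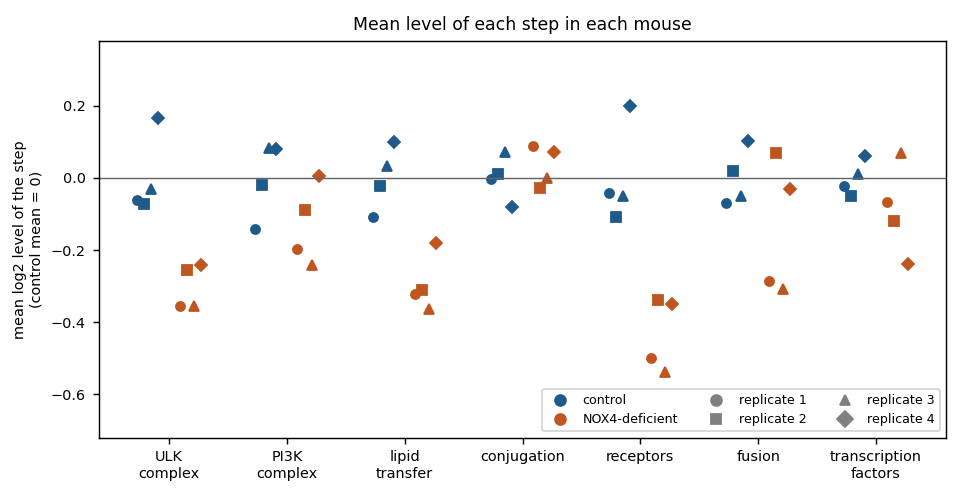
Mean log2 level of the genes of each step in each mouse, from TMM-scaled CPM plus 0.5 and set to 0 at the control mean of each gene; symbols mark replicates 1 to 4. The NOX4-deficient mice lie below all controls in the ULK, lipid transfer and receptor steps and overlap the controls in the other 4.

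Several of these calls depended on single libraries. Control 4 was the highest control in 9 of the 11 genes that were lower without overlap. It was the highest in 18 of all 39 genes (46.2%) and in 30.6% of all rows. NOX4-deficient mouse 3 was the lowest of its group in 8 of the 11, in 17 of all 39 genes (43.6%) and in 23.9% of all rows. The 11 genes were picked by their outcome, whereas the 39 genes and all rows were not. *Ulk1* and *Vmp1* were called with each of the 8 mice left out in turn. *Atg13* lost its call without control 4 (log2 fold change -0.48) and without NOX4-deficient mouse 3 (-0.49), where it missed the fold threshold. *Optn* lost its call without control 4 (adjusted p = 0.0638), without NOX4-deficient mouse 1 (0.0592) and without NOX4-deficient mouse 3 (0.0612). *Snap29* was called in 4 of the 8 fits and lost its call without control 3, without control 4, and without NOX4-deficient mouse 3 or 4. Without control 4, and likewise without NOX4-deficient mouse 3, 2 of the 39 genes were called, *Ulk1* and *Vmp1*. In these fits 295 of 12882 and 302 of 12885 rows tested were called lower, against 443 of 12725 with all mice. *Rb1cc1* gave an adjusted p of 0.0223 in DESeq2 against 0.0568 in edgeR, *Uvrag* 0.0273 against 0.0619 and *Nbr1* 0.0403 against 0.0796, so that these 3 genes lay on either side of 0.05 depending on the tool.

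Other genes of the pathway, taken from a list of 67 of which 60 could be tested, were read from the same fit. Of the 60, 5 fell and 1 rose (8.33% and 1.67%, against 3.48% and 2.68% of all rows), and 41 (68.3%) had negative log2 fold changes, with a median of -0.13. Among the 5 ATG8 genes, the products that the conjugation genes handle, *Gabarapl1* fell by 1.58 on the log2 scale (adjusted p = 4.41e-05), from 123 to 166 CPM in controls to 42.9 to 57.0 CPM in NOX4-deficient mice, and *Map1lc3b*, with a log2 fold change of -0.36 (adjusted p = 0.0825), overlapped. Among 12 further cargo receptors and adaptors, *Retreg1*, a receptor in endoplasmic reticulum turnover, fell by 1.40 (adjusted p = 0.00106), *Bnip3*, a mitochondrial receptor, by 0.87 (adjusted p = 0.00619) and *Sqstm1*, which encodes p62, by 0.69 (adjusted p = 0.00456). Control 4 raised the control means of *Retreg1* (981 CPM against 553 to 581 CPM in the other controls) and *Bnip3* (440 CPM against 257 to 312 CPM). The other controls still lay above all NOX4-deficient mice, at 232 to 287 CPM and 159 to 194 CPM. Of the 10 other transcriptional regulators tested, *Flcn*, the folliculin that acts in nutrient control of TFEB, fell by 0.64 (adjusted p = 0.0113), and *Foxo3* had a log2 fold change of -0.58 without overlap and an adjusted p of 0.0624. *Tmem41a*, which encodes a relative of VMP1 and was low in muscle at 1.72 to 2.35 CPM in controls and 2.98 to 4.63 CPM in NOX4-deficient mice, rose by a log2 fold change of 0.80 (adjusted p = 0.0376). None of 15 kinases and regulators upstream of ULK1 and the PI3K complex and none of 11 genes of tethering and lysosome fusion was called. *Tbk1*, the kinase that phosphorylates optineurin, separated the genotypes at a log2 fold change of -0.43 (adjusted p = 0.0606), and *Rheb*, the activator of mTORC1, at -0.31 (adjusted p = 0.0790).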

How the data were processed

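Gastrocnemius RNA was sequenced as poly(A), unstranded, paired-end libraries. The authors deposited whole-number counts for each gene symbol, without normalization, from the nf-core pipeline for RNA-seq. The labels' processing notes name STAR and GRCm39, and the annotation and counter settings are not given in the sources used here. All 8 columns matched a sample, and 0 were left unmatched. Of rows that share a symbol, that with most counts was used. All rows were fitted in R 4.3.3 with edgeR 4.0.16 (TMM, filterByExpr, robust glmQLFit, glmQLFTest), with genotype as the only term and Benjamini-Hochberg adjustment over 12725 rows. The scripts were tested on simulated data. No pair of replicates agreed within sampling noise. Transcript lengths (longest coding transcript) and exon overlaps came from GENCODE vM21 and promoters from RefSeq, both on GRCm38, and were joined by symbol because the counts were made on GRCm39.

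Values in every mouse are given for genes called, genes with an adjusted p under 0.05 and the smallest p of each step, and means for genes without overlap and for *Atg5*, *Atg7*, *Becn1*, *Pik3c3*, *Rb1cc1* and *Tfeb*. Of other pathway genes, up to 3 called per list are named. *Ulk2*, *Map1lc3b*, *Foxo3*, *Tbk1* and *Rheb* were added after their values were seen. The members and lists were chosen with earlier results of these data known. Alternatives were DESeq2's size factors, library size only, no filter, a minimum of 10 counts in all libraries, a non-robust fit, DESeq2 1.42.0, pydeseq2 0.5.4, other thresholds, the replicate block and each mouse left out in turn.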

Additional observations from a re-analysis of the deposited data

Results flagged for a closer look

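Of 80 groups of 4 mice, 5 held a mouse whose gap to the nearest other mouse, as a share of the whole range, exceeded Dixon's 95% critical value, which chance exceeds in about 1 of 20 groups, here about 4. *Atg13* in control 4 had a ratio of 0.883, with 82.2 CPM against 63.3 to 65.5 CPM in the other controls, and its call was lost without that mouse. *Atg14* in control 1 had a ratio of 0.929 (6.35 CPM against 9.77 to 10.03). *Wipi1* in NOX4-deficient mouse 3 had a ratio of 0.900 (59.1 CPM against 72.9 to 74.5), and its log2 fold change without that mouse was -0.38 (adjusted p = 0.0457). Without control 3, *Wipi1* had an adjusted p of 0.0536 and missed the threshold. *Atg3* in NOX4-deficient mouse 3 had a ratio of 0.916 (29.7 CPM against 36.9 to 37.6). *Tecpr1* in control 2 had a ratio of 0.902 (23.6 CPM against 21.7 to 21.9).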

How the results depend on the processing

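DESeq2's size factors, library size only, no filter, a minimum of 10 counts in all libraries, a non-robust fit, DESeq2, pydeseq2 and the replicate block called the same 5 genes as the main fit. An adjusted p under 0.01 left 2 of them and 252 of the 784 rows called in all. With each mouse left out, 2 to 5 genes and 499 to 712 rows were called (499 without control 4). Of 624 values of single genes under 16 alternatives, 591 kept their direction and side of the threshold, 9 lost a call, all of them with a mouse left out, and 24, from 8 genes near 0, changed sign. With a mouse left out, log2 fold changes ran from -0.210 to 0.0317 for *Atg14*, -0.12 to 0.0223 for *Wdr45b*, -0.0275 to 0.0939 for *Atg3*, -0.0543 to 0.0850 for *Atg5*, -0.15 to 0.0157 for *Atg7*, -0.0371 to 0.0874 for *Atg12*, -0.0428 to 0.000788 for *Atg16l1* and -0.0692 to 0.0375 for *Atg4c*. *Atg5* stood at 0.0106 with library size only, and with the minimum of 10 counts *Atg5* stood at 0.0156 and *Atg16l1* at 0.00187. Whether the replicate number pairs the mice was not settled. Same-numbered mice correlated at 0.254, 0.166, 0.0640 and 0.0461, all of them positive, and mice of different numbers at -0.231 to 0.218. Not every mouse correlated best with its own number, which with so few mice cannot exclude a shared factor. The replicate block gave 933 rows called and 5 of the 39 genes. With 4 mice a group and a biological coefficient of variation of 0.174, the SE of the 39 log2 fold changes ran from 0.09 to 0.19.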
